A study of Mus musculus with 22 samples.

Results

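A set of 40 named genes of sugar breakdown and of the response to low oxygen was followed in regulatory T cells (Tregs) of mouse visceral fat. They were taken by symbol from a table of RNA-seq read counts, and all 40 were among its 55011 gene symbols. They comprised 4 transporters of glucose and lactate, 10 genes from hexokinase to aldolase, 7 genes from triose phosphate to pyruvate, 9 genes of lactate and pyruvate handling, 6 genes of the HIF pathway and 4 hypoxia-induced genes. Together they took 0.642 to 0.858% of the counts of a library.

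The cells came from 22 libraries in 8 groups, each library made from 1000 Foxp3-YFP+ Tregs sorted in 2 rounds at ZT0, the time when the lights go on. The mice were male C57BL/6 Foxp3.Cre-YFP animals. In this strain the Treg gene Foxp3 drives Cre recombinase and a yellow fluorescent protein, so KO and WT cells share that allele. For the transfer groups it is not given whether this describes the donors, the recipients or both. The groups labelled Bmal1 KO and Bmal1 WT were compared at 4 conditions. After adoptive transfer, cells were sorted at 9 weeks from mice aged 20 weeks (2 KO and 2 WT libraries). On a lean diet the mice were 18 weeks old (3 KO and 3 WT libraries). High fat diet followed 14 weeks of lean diet and lasted 4 weeks in mice of 18 weeks (3 KO and 3 WT libraries) or 16 weeks in mice of 30 weeks (3 KO and 3 WT libraries). The labels give neither the deleted part of Bmal1 nor the donors and recipients of the transfer, and they do not say whether replicates came from separate animals. The p values therefore measure the spread between libraries, which may be technical.

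Total counts were 4814337 to 5990319 in the transfer libraries and 1955940 to 3467019 in the diet libraries. Arntl, the gene that encodes BMAL1, had group means of 68.3 to 99.0 CPM (reads of the gene set against its library's total after TMM normalisation), and its KO to WT difference did not pass the test at any condition (edgeR adjusted p 0.628 to 0.999 over the 3 diets and transfer). A count over the whole gene cannot show loss of a part of it, and this gene is therefore no check of the labels. Npas2, a relative of CLOCK that can partner BMAL1, was higher in KO than in WT on the lean diet (53.5 against 4.93 CPM). Foxp3 averaged 480 to 676 CPM in every group. Of the markers of other cells, 5 of 6 macrophage, 3 of 4 B cell and 3 of 4 adipocyte genes averaged under 5 CPM in every group; the exceptions were Cd68 at 5.05 to 10.1 CPM, Cd79b at 2.87 to 22.8 CPM (highest in 4-week WT) and Fabp4 at 1.15 to 23.5 CPM (highest in 16-week KO). Group means also stayed under 5 CPM for 2 of 5 endothelial, 3 of 5 stromal and 2 of 3 dendritic genes. The same held for 3 of 5 cytotoxic T and NK genes and for all mesothelial, neutrophil and red blood cell genes. Summed endothelial markers had group means of 41.6 to 156 CPM, and cytotoxic T and NK markers 18.1 to 36.0 CPM. Replicate 1 of 16-week KO stood apart with 87.5 CPM summed over 5 stromal markers and 52.0 CPM over 4 adipocyte markers, against at most 10.4 and 11.7 CPM in every other library. In bulk RNA, fewer cells of a type and less RNA per cell cannot be told apart.

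Glycolysis turns glucose into pyruvate in the cytosol. Lactate dehydrogenase then reduces pyruvate to lactate, or the mitochondrial pyruvate carrier and pyruvate dehydrogenase pass it to the citric acid cycle, a step that the pyruvate dehydrogenase kinases (PDKs) block. In low oxygen the HIF alpha subunits escape hydroxylation by the EGLN enzymes and degradation through VHL, pair with ARNT and switch on many glycolytic genes together with Egln3, Bnip3, Vegfa and Ddit4. Tregs are known to lean on fatty acid oxidation more than effector T cells do, while glycolysis supports their growth and migration.

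HIF dimers bind the core ACGTG or GCGTG, and BMAL1 with CLOCK binds the E-box CACGTG, which itself holds ACGTG. Both strands of the RefSeq promoters (GRCm38.p6, 250 bases before to 50 after the start) were searched for these letters. Of the 40 genes 38 had a promoter in the table, and the first listed promoter held ACGTG or GCGTG in 31 of 38 (81.6%), against 43.8% of 27025 genes. ACGTG alone was found in 52.6% of them, against 19.7% of the 27025, and CACGTG in 15.8%, against 7.24%. The 27025 were not matched to the members by expression in these cells or by base content. These shares were therefore not compared with those of like promoters. The list was also chosen to hold hypoxia-induced and glycolytic genes, many of them switched on by HIF. Its share of HIF cores may in part reflect that choice. The promoters of 3 genes whose counts changed most often, and that of Ldha, the member with the highest level, are shown with both cores in capitals on either strand, so that CACGT and CACGC stand for the reverse strand and a capital run can join 2 overlapping matches. They were chosen after the values were seen.
Hif1a promoter: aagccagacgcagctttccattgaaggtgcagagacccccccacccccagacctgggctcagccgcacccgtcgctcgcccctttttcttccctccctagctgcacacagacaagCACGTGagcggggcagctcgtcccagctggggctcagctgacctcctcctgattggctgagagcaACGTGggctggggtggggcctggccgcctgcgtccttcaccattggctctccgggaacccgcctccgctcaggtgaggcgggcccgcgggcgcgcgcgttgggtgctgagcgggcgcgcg
Egln3 promoter: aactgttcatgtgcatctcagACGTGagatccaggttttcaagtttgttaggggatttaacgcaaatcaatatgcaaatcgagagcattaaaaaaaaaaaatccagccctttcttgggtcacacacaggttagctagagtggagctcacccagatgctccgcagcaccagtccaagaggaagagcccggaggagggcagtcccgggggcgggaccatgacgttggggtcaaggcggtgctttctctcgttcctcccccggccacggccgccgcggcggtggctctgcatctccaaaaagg
Ldhb promoter: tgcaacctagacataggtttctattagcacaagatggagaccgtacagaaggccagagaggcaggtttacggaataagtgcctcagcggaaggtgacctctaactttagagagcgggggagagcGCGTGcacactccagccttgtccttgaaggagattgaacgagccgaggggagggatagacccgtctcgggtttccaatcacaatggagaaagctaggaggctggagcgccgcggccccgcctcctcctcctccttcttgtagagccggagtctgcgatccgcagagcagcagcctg
Ldha promoter: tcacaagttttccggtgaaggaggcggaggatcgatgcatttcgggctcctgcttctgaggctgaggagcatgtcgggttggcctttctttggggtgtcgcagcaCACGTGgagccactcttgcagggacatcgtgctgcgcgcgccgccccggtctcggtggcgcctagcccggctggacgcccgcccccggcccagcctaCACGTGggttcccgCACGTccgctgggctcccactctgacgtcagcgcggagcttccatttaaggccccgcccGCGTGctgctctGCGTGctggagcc
The Hif1a window lies at chr12:73907617-73907916 on the plus strand, and the E-box in it counts as 2 of its 3 ACGTG matches. The Egln3 window, chr12:54203825-54204124 on the minus strand, holds a single ACGTG 229 bases before the start. The Ldhb window, chr6:142507908-142508207 on the minus strand, holds GCGTG and no ACGTG. The Ldha window, chr7:46845554-46845853 on the plus strand, holds 5 ACGTG matches, of which 4 lie in 2 E-boxes, and 2 GCGTG matches. The RefSeq starts of Hif1a and Ldha lie 6492 and 4329 bases inside the GENCODE M21 spans of these genes, so these windows precede the RefSeq transcripts and not the first annotated start, while those of Egln3 and Ldhb lie within 14 bases of it. These are matches of letters and not measured binding sites, and none was tested here for any factor.

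Levels per kilobase of exon spread widely along the pathway. Over the 22 libraries Ldha, the muscle-type lactate dehydrogenase, had a median of 379 CPM per kilobase, Aldoa 241, Pkm, the pyruvate kinase gene of most tissues, 203 and Gapdh 117. Gpi1, the glucose phosphate isomerase gene, had 83.5, while in lower glycolysis Pgk1 had 35.0, Pgam1 8.40 and Eno3 3.44. At the other end Hk2, the inducible hexokinase, had a median of 0.489 CPM per kilobase and Pfkfb4 1.20. Vegfa, the angiogenic factor, had 3 counts in all 22 libraries, with 0 in 19 of them, so it was not tested; a count of 0 allows up to 0.554 to 1.56 CPM depending on the library, counting error only. Within families, Hk1 made up a median of 97.2% of hexokinase per kilobase, Aldoa 97.5% of aldolase, Eno1 94.3% of enolase and Hif1a 98.8% of the HIF alpha subunits. Glucose transport was shared between Slc2a3 (78.3%) and Slc2a1 (21.7%), phosphofructokinase between Pfkl (50.2%), Pfkp (37.4%) and Pfkm (12.7%), and the PDKs between Pdk3 (55.9%), Pdk1 (27.7%) and Pdk2 (14.7%). With 38-base reads, 11 of the 40 genes share over 20% of their 38-base words with other loci, among them Eno1 (75.4%), Bnip3 (70.1%), Pgk1 (68.2%), Pkm (43.9%), Ldhb (35.8%), Gapdh (30.4%) and Ldha (27.3%), so their levels are uncertain.

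**Figure D1:**
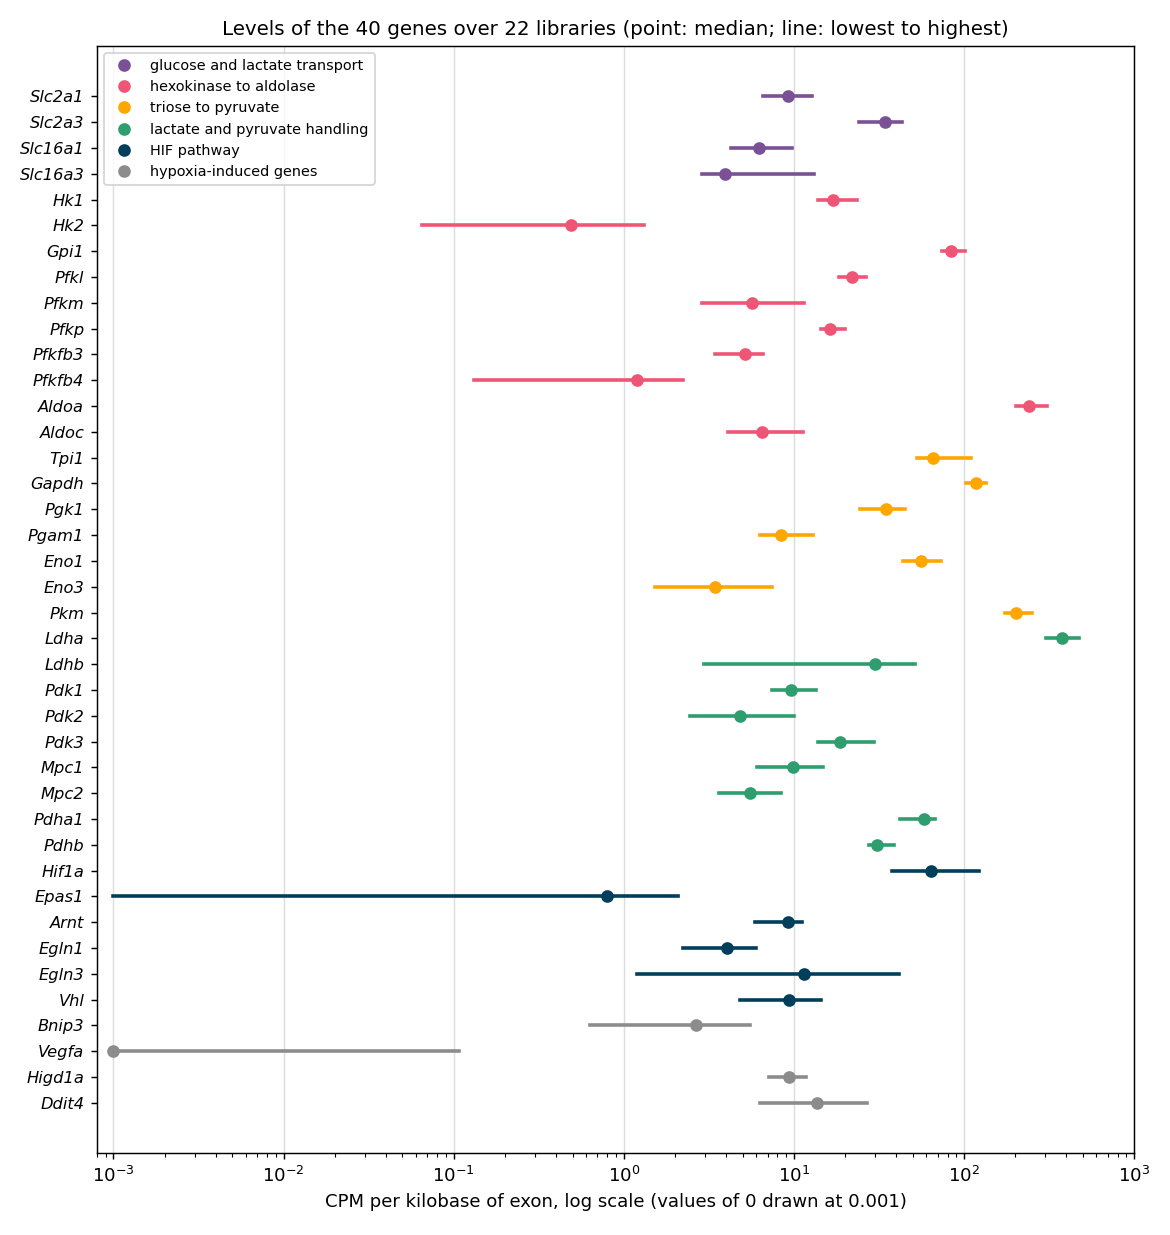
Level of each of the 40 genes in CPM per kilobase of exon on a log axis, ordered and coloured by role; points are medians and lines run from the lowest to the highest of 22 libraries. Ldha, Aldoa and Pkm stand highest, and Hk2, Epas1 and Vegfa lowest.

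Of the 40 genes, 6 passed the test in at least 1 of 17 comparisons, in 14 calls, and 34 passed in none. At least 1 call was had by 6 of the 39 members tested and by 13.7% of the 12451 genes tested in any fit. These were 3 of the 6 HIF pathway genes (Hif1a, Epas1 and Egln3), 1 of 9 genes of lactate and pyruvate handling (Ldhb), 1 of 10 from hexokinase to aldolase (Aldoc) and 1 of 7 from triose phosphate to pyruvate (Tpi1). None of the 4 transporters and none of the 3 tested hypoxia-induced genes did so. The comparisons share libraries, so these calls are not independent.

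The summed RNA of the glycolytic enzymes differed little between KO and WT at each condition. The 15 enzymes from hexokinase to pyruvate kinase added up to 4329 ± 49.7 CPM in transferred KO cells and 4360 ± 78.0 CPM in transferred WT cells (SD, n = 2 each). On the lean diet KO had 4083 ± 155 CPM and WT 4061 ± 176 CPM (SD, n = 3 each). After 4 weeks of high fat diet KO had 4040 ± 268 CPM and WT 4091 ± 124 CPM, and after 16 weeks KO had 4214 ± 409 CPM and WT 4048 ± 212 CPM (SD, n = 3 each). Each of these differences was smaller than the larger SD of its pair. The largest parts of the sum in lean WT were Pkm (1019 CPM), Aldoa (822), Gpi1 (525) and Gapdh (501). The sum therefore follows abundant genes and cannot show changes in rare ones such as Hk2.

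No member passed an adjusted p of 0.05 between KO and WT (edgeR quasi-likelihood test, Benjamini-Hochberg over all genes tested). Of 39 members tested, 0 were called on the lean diet, where 0.0427% of all genes were, 0 after 4 weeks of high fat diet (0.0684% of all genes), 0 after 16 weeks (0.0427%) and 0 on the average of the 3 diets (0.18%), and of 38 tested after transfer 0 were called (0.171%). An unadjusted p under 0.05 was reached by 3 members on the lean diet (7.17% of all genes), 2 after 4 weeks (4.62%), 3 after 16 weeks (9.15%), 3 on the average (7.39%) and 3 after transfer (6.53%). DESeq2 called 0 members in these comparisons other than Egln3 after 16 weeks. The median log2 fold change of the members was 0.03 on the lean diet, -0.04 after 4 weeks, 0.07 after 16 weeks and -0.11 after transfer, beside -0.0027, 0.0012, 0.0014 and 0.0050 for all genes. All KO libraries lay on opposite sides of all WT libraries at different conditions in 5 of the 39 members (Hk2, Gpi1, Pfkfb3, Tpi1 and Pgk1), and in 7.11% of all genes tested on the diets.

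**Figure D2:**
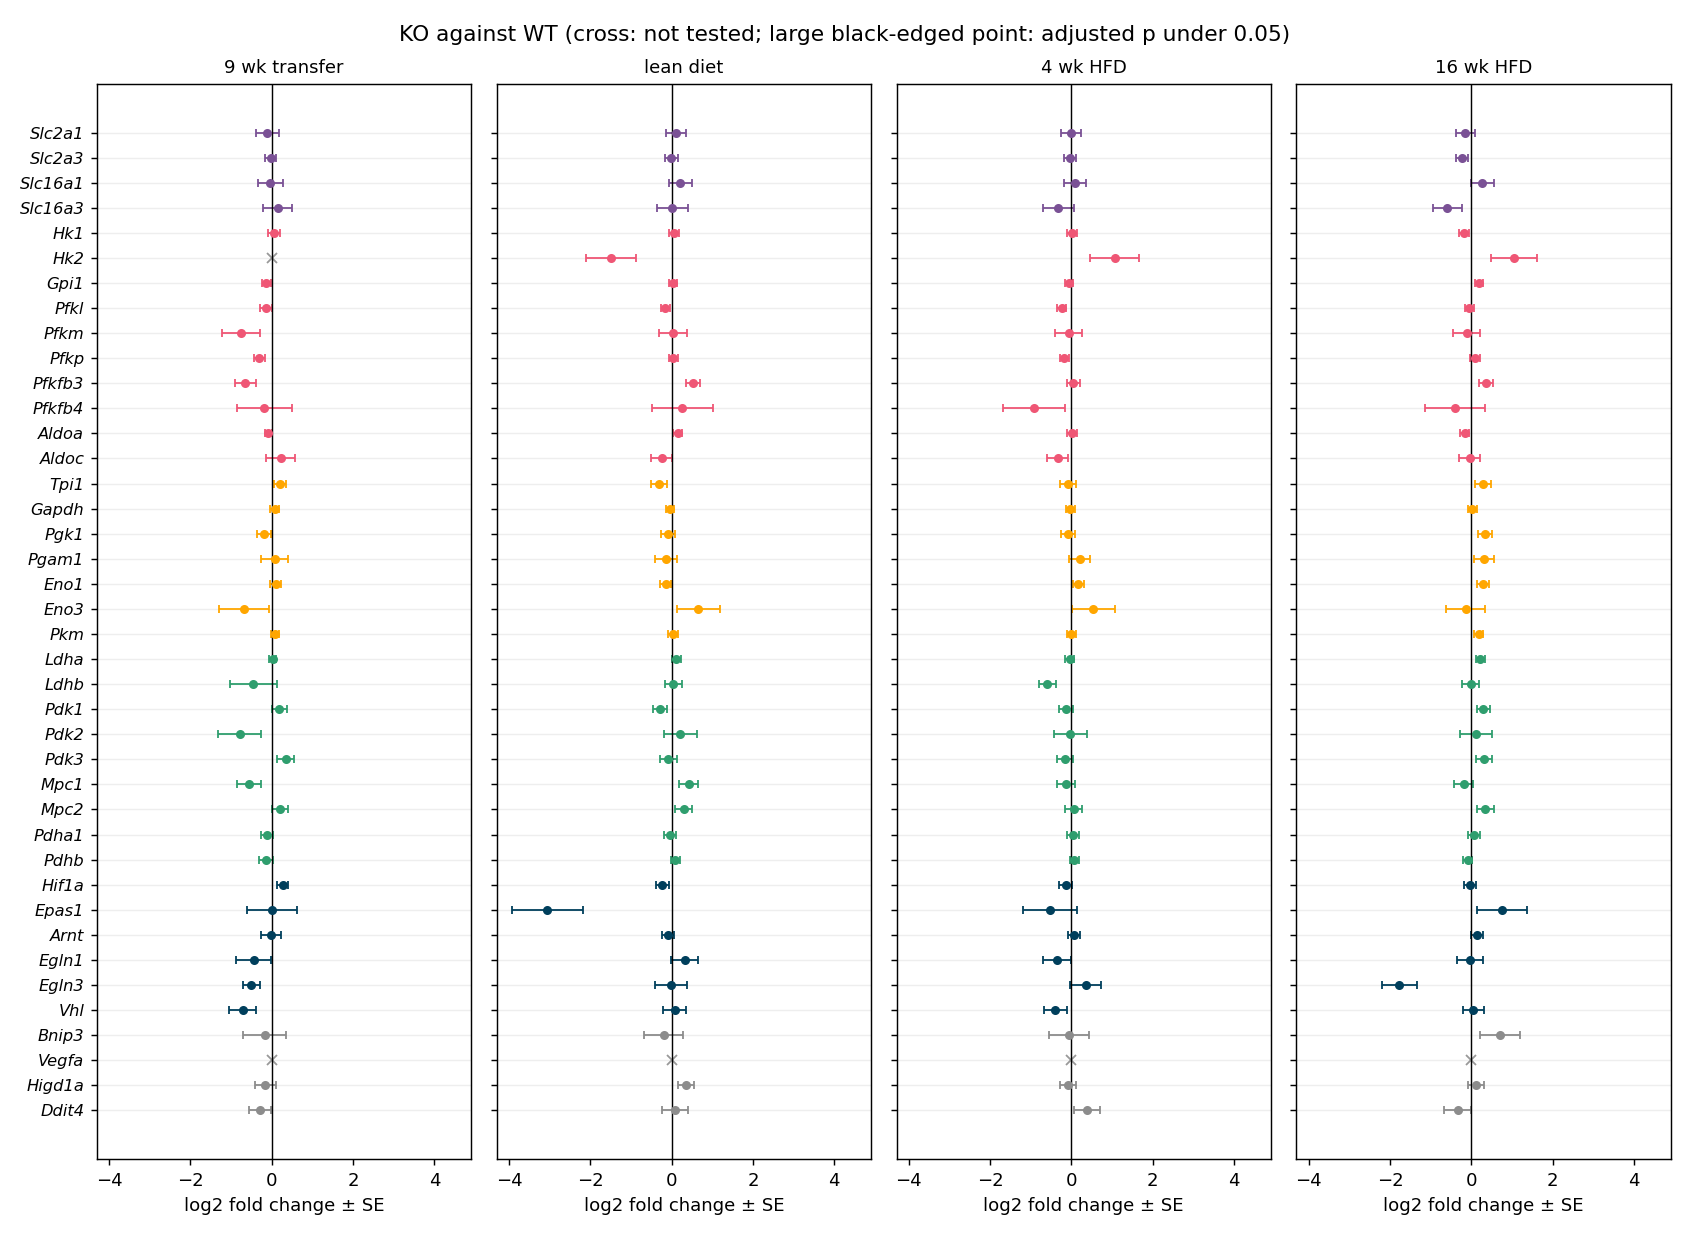
Log2 fold change of KO against WT for each gene (points) with its standard error (lines), after transfer, on lean diet and after 4 and 16 weeks of high fat diet; crosses mark genes not tested. No point carries the black edge of an adjusted p under 0.05, and Epas1 on lean diet lies farthest from 0.

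Among the transporters, Slc2a1, the general glucose transporter GLUT1, had 25.8 and 32.3 CPM in transferred KO cells and 32.4 and 30.1 CPM in transferred WT cells. On the lean diet it had 31.9, 42.0 and 36.5 CPM in KO and 43.1, 30.3 and 28.5 CPM in WT. Its 4-week values were 29.0, 23.1 and 40.5 CPM in KO and 32.5, 25.7 and 35.2 CPM in WT, and its 16-week values 44.6, 28.2 and 29.7 CPM in KO and 44.5, 38.1 and 32.7 CPM in WT. KO and WT libraries overlapped at each condition. Slc2a3, the transporter GLUT3, varied 1.32-fold between its lowest group mean (198 CPM, 16-week KO) and its highest (263 CPM, transferred WT). The lactate transporter Slc16a3 reached 69.7 CPM in replicate 3 of 16-week WT, where the summed cytotoxic T and NK cell markers were also highest of all libraries at 64.0 CPM; their part in that value was not tested.

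Hk2, which traps glucose in the cell as its phosphate, was near the counting floor. It had 2.20, 1.04 and 2.7 CPM in lean KO cells and 7.80, 3.74 and 5.60 CPM in lean WT cells. After 4 weeks of high fat diet the values were 6.23, 4.49 and 2.51 CPM in KO and 3.03, 0.389 and 2.89 CPM in WT. After 16 weeks they were 7.03, 5.26 and 4.47 CPM in KO and 2.28, 2.78 and 3.03 CPM in WT. KO lay wholly below WT on the lean diet and wholly above it after 16 weeks. In transferred cells Hk2 had 0.441 and 0.962 CPM in KO and 2.94 and 1.29 CPM in WT, too few counts for the test. The log2 fold change was -1.49 ± 0.61 on the lean diet (SE, adjusted p = 0.607), 1.06 ± 0.61 after 4 weeks (adjusted p = 0.999) and 1.05 after 16 weeks.

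Pfkfb3, whose product makes the sugar phosphate that activates phosphofructokinase, had the smallest p of the members on the average of the 3 diets. It had 28.5 and 28.5 CPM in transferred KO cells and 39.2 and 49.9 CPM in transferred WT cells. On the lean diet the order was the other way, with 42.1, 39.9 and 35.1 CPM in KO and 28.9, 26.6 and 26.1 CPM in WT, and neither pair of groups overlapped. After 4 weeks of high fat diet KO had 43.6, 44.3 and 36.9 CPM and WT 39.0, 46.3 and 35.2 CPM, which overlapped. After 16 weeks KO had 42.2, 45.8 and 45.7 CPM, all above the 41.9, 29.7 and 33.3 CPM of WT. The log2 fold change of KO against WT was -0.65 ± 0.26 after transfer (SE, edgeR adjusted p = 0.720), 0.52 ± 0.18 on the lean diet (adjusted p = 0.485), 0.37 ± 0.17 after 16 weeks (adjusted p = 0.519) and 0.31 ± 0.10 on the average of the diets (adjusted p = 0.401). The difference between its transfer and lean effects was -1.16 ± 0.30 on the log2 scale (adjusted p = 0.446).

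The phosphofructokinase genes Pfkl (liver type) and Pfkp (platelet type) encode subunits of the enzyme that commits sugar to glycolysis. Pfkl had 123, 125 and 130 CPM in 4-week KO and 146, 137 and 162 CPM in 4-week WT, with no overlap and a log2 fold change of -0.24 ± 0.11 (SE, adjusted p = 0.999). At the other conditions Pfkl had 136 and 123 CPM in transferred KO and 144 and 142 CPM in transferred WT. It had 140, 146 and 149 CPM in lean KO and 144, 163 and 176 CPM in lean WT. After 16 weeks it had 150, 169 and 159 CPM in KO and 172, 158 and 171 CPM in WT. Lean and 16-week libraries overlapped between genotypes, and the change averaged over the diets was -0.15 ± 0.06 (adjusted p = 0.612). Pfkp had 194 and 218 CPM in transferred KO and 267 and 241 CPM in transferred WT, a log2 fold change of -0.31 ± 0.13 (adjusted p = 0.752), and KO and WT overlapped on each diet. It had 225, 216 and 222 CPM in lean KO and 194, 211 and 238 CPM in lean WT, 208, 221 and 217 CPM in 4-week KO and 209, 256 and 262 CPM in 4-week WT, and 201, 247 and 213 CPM in 16-week KO and 195, 205 and 225 CPM in 16-week WT.

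In lower glycolysis, Gapdh, which oxidises glyceraldehyde phosphate, had 486 and 437 CPM in transferred KO and 426 and 446 CPM in transferred WT. On the lean diet it had 481, 519 and 459 CPM in KO and 525, 483 and 495 CPM in WT, after 4 weeks 537, 453 and 494 CPM in KO and 502, 526 and 482 CPM in WT, and after 16 weeks 553, 458 and 484 CPM in KO and 471, 467 and 546 CPM in WT. It was the steadiest member, with 1.15-fold between its lowest and highest group means. Pkm, which makes pyruvate, had 1173 and 1231 CPM in transferred KO and 1078 and 1182 CPM in transferred WT. Lean libraries of Pkm had 1069, 1087 and 969 CPM in KO and 1087, 1025 and 943 CPM in WT. After 4 weeks Pkm had 1153, 971 and 944 CPM in KO and 968, 1100 and 998 CPM in WT, and after 16 weeks 1259, 965 and 1001 CPM in KO and 867, 1010 and 1004 CPM in WT. KO and WT overlapped at each condition.

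Ldha, which turns pyruvate into lactate, had 1429 and 1412 CPM in transferred KO and 1384 and 1397 CPM in transferred WT. On the lean diet it had 1222, 1347 and 1270 CPM in KO and 1221, 1163 and 1158 CPM in WT. After 4 weeks it had 1563, 1239 and 1227 CPM in KO and 1394, 1424 and 1325 CPM in WT, and after 16 weeks 1394, 1195 and 1139 CPM in KO and 1002, 1105 and 1118 CPM in WT. In TMM-scaled CPM, KO lay above WT without overlap at 3 of the 4 conditions, the exception being 4 weeks, but by little. The closest lean libraries had 1222 CPM in KO and 1221 CPM in WT. Set against total counts alone, KO and WT overlapped on the lean diet and after transfer. The share of all genes with such an order at 3 conditions was not counted. The log2 fold change after 16 weeks was 0.22 ± 0.11 (SE, edgeR adjusted p = 0.537).

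**Figure D3:**
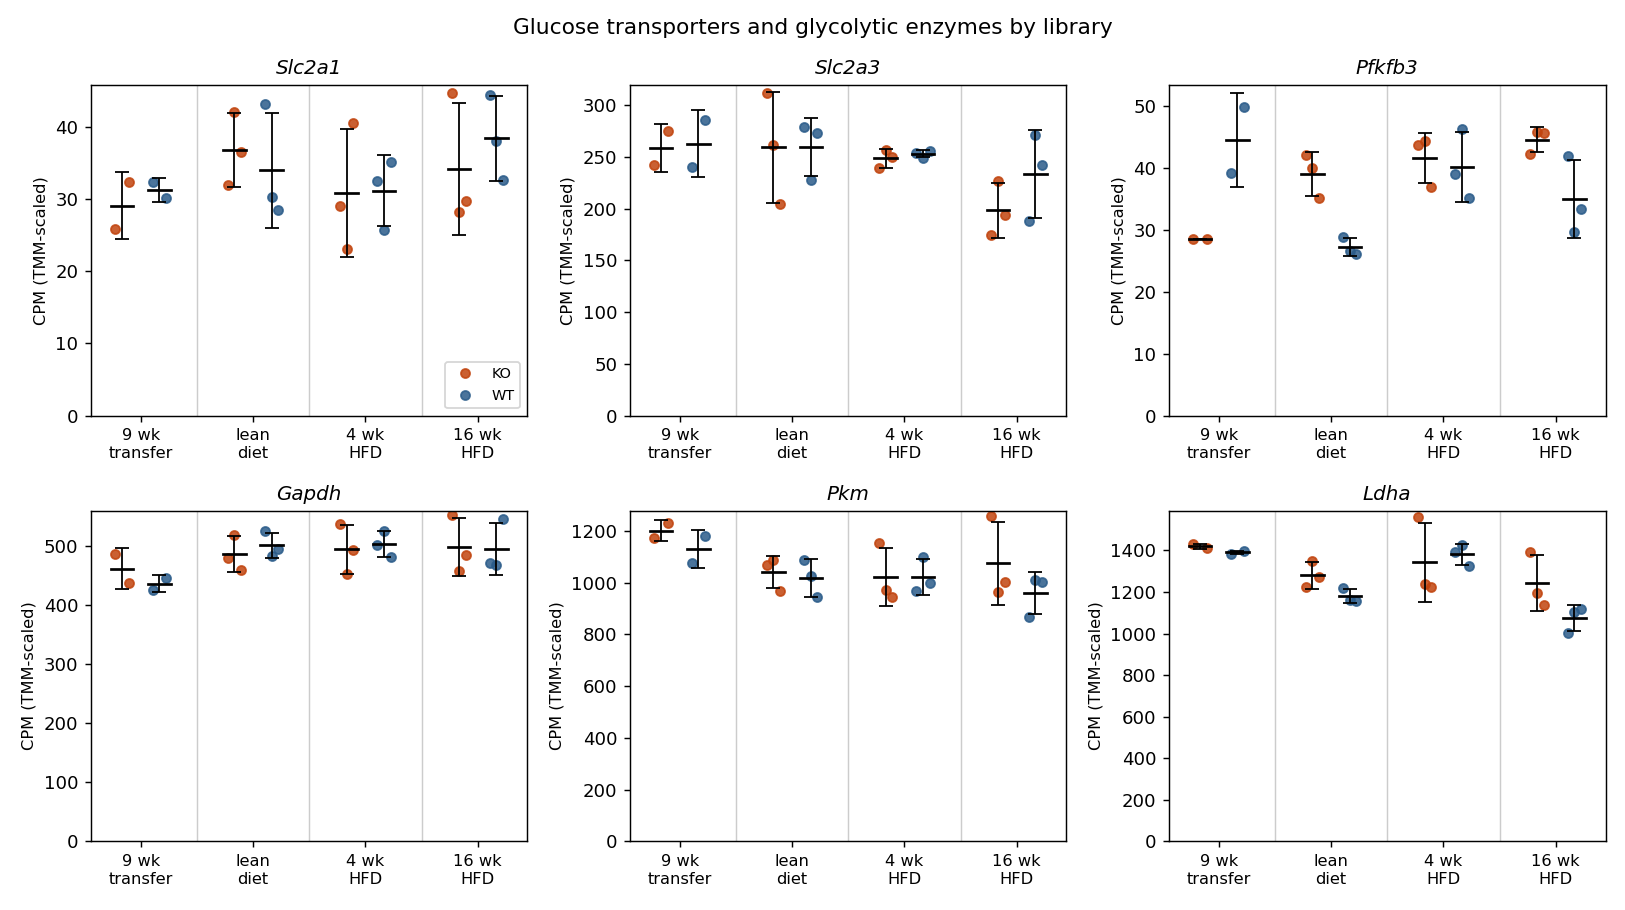
CPM of Slc2a1, Slc2a3, Pfkfb3, Gapdh, Pkm and Ldha in each library (points), with group means and SD (bars), KO left of WT at each condition. Gapdh and Pkm vary little between groups, and Pfkfb3 in KO lies below WT after transfer and above it on lean diet.

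In the oxygen-sensing genes the widest KO to WT difference after 16 weeks was in Egln3, a HIF prolyl hydroxylase that is itself induced by HIF (chr12:54178981-54203860, minus strand, mm10). Egln3 had 11.6, 7.13 and 3.20 CPM in 16-week KO and 14.5, 41.2 and 19.5 CPM in 16-week WT, with every KO library below every WT library. The log2 fold change was -1.77 ± 0.43 (SE), which did not pass with edgeR (adjusted p = 0.201) but did with DESeq2 (adjusted p = 0.0222), without the filter on low counts and without replicate 1 of 16-week WT (edgeR adjusted p = 0.0467). On the lean diet Egln3 had 24.2, 23.3 and 32.4 CPM in KO and 32.1, 28.7 and 20.1 CPM in WT, and after 4 weeks 42.2, 41.7 and 38.7 CPM in KO and 50.7, 26.9 and 18.3 CPM in WT. Both pairs overlapped. After transfer Egln3 had 68.0 and 66.4 CPM in KO and 79.5 and 110 CPM in WT. Both KO libraries lay below both WT libraries, at a log2 fold change of -0.51 (edgeR adjusted p = 0.731). With 2 libraries a group such an order arises easily. Many other members were also separated after transfer, in either direction, and the share of all genes was not counted. The interaction of genotype with 16 weeks against lean diet was -1.75 ± 0.59 (adjusted p = 0.400).

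Epas1, which encodes the second HIF alpha subunit HIF2A (chr17:86753700-86833410, plus strand, mm10), was rare in these cells. In lean KO it had 1.10, 0.518 and 0 CPM, from 3, 1 and 0 counts, and in lean WT 7.34, 2.91 and 5.13 CPM. After 4 weeks it had 4.40, 2.24 and 3.22 CPM in KO and 3.78, 1.95 and 8.67 CPM in WT. After 16 weeks it had 8.79, 9.76 and 9.59 CPM in KO and 11.7, 2.78 and 2.36 CPM in WT, and after transfer 7.28 and 5.97 CPM in KO and 4.53 and 8.49 CPM in WT. KO and WT overlapped except on the lean diet, where the log2 fold change of -3.06 ± 0.87 (SE, edgeR adjusted p = 0.410) rests on 4 KO counts. Epas1 is also known as an endothelial gene. The 5 endothelial markers summed to 197, 158 and 115 CPM in 16-week KO and 162, 61.9 and 49.5 CPM in 16-week WT, against 38.4 to 74.7 CPM in lean KO and 60.6 to 73.9 CPM in lean WT. Pecam1 made up most of these sums, while Cldn5 averaged 17.9 CPM in 16-week KO and at most 0.862 CPM in every other group; their part in the Epas1 values was not tested.

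**Figure D4:**
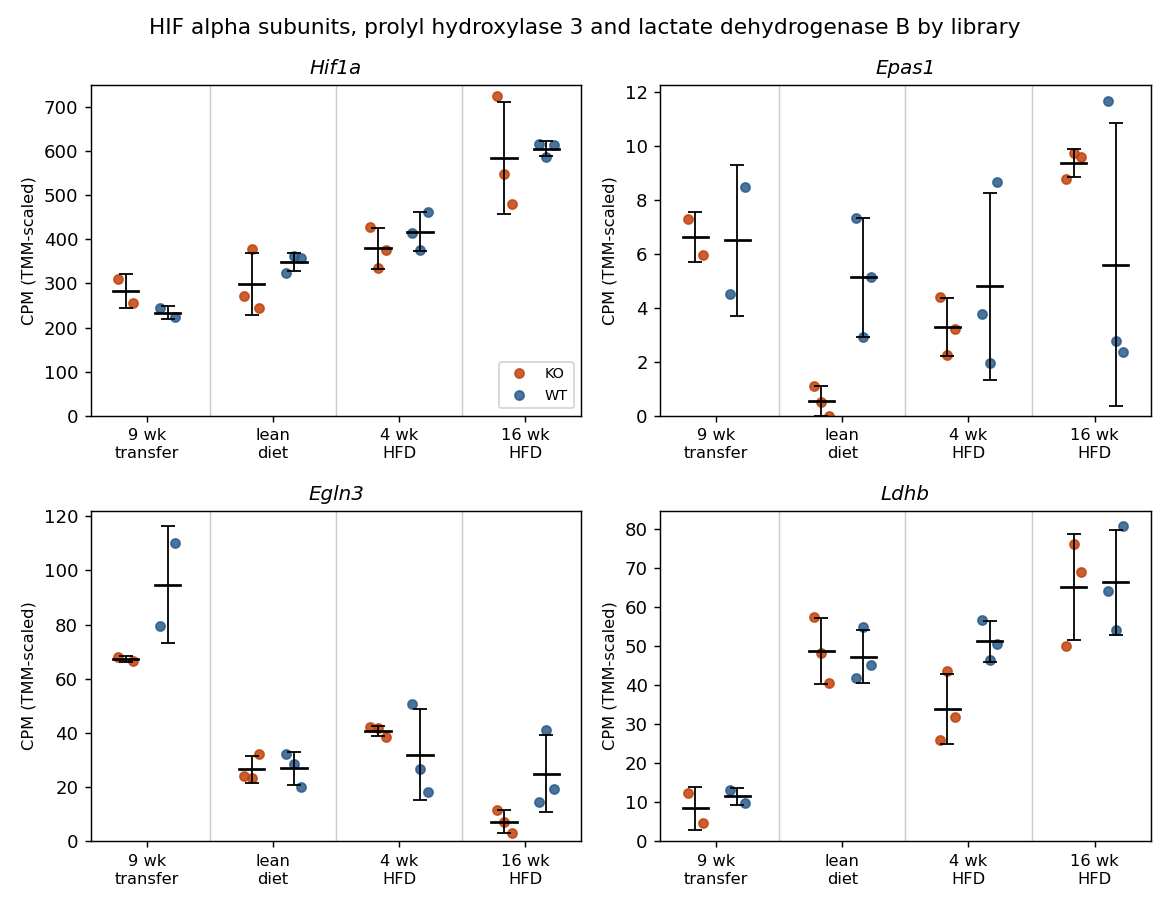
CPM of Hif1a, Epas1, Egln3 and Ldhb in each library (points), with group means and SD (bars), KO left of WT at each condition. Hif1a is highest after 16 weeks of high fat diet in both genotypes, Egln3 is highest and Ldhb lowest after transfer, and Egln3 is lowest in 16-week KO.

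Hif1a rose in KO cells after 16 weeks of high fat diet, with a change of like size in WT that did not pass the test. Hif1a encodes the main HIF alpha subunit of T cells (chr12:73901375-73947530, plus strand, mm10). In KO cells it had 272, 377 and 244 CPM on the lean diet, 428, 336 and 376 CPM after 4 weeks and 725, 547 and 481 CPM after 16 weeks. In WT cells it had 324, 363 and 358 CPM on the lean diet, 414, 376 and 462 CPM after 4 weeks and 617, 586 and 614 CPM after 16 weeks. Every 16-week library of either genotype lay above every lean and 4-week library of that genotype. The log2 fold change of 16 weeks against lean was 0.97 ± 0.16 in KO (1.96-fold, edgeR adjusted p = 0.000894) and 0.78 ± 0.16 in WT (1.72-fold, adjusted p = 0.0678, which passed with DESeq2 and without the filter on low counts). The difference between these changes was 0.19 ± 0.22 (adjusted p = 0.854). The non-coding Gm15283 overlaps Hif1a on the other strand, in a library type that does not mark strand, and averaged at most 9.48 CPM.

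In KO cells 3 of 39 members changed after 16 weeks against lean diet, 2 up and 1 down, in a comparison that called 5.95% of all genes (2.36% up and 3.59% down). Beside Hif1a, Epas1 rose in KO (log2 fold change 3.93 ± 0.83, adjusted p = 0.00714, over the 4 counts of lean KO) and Egln3 fell (-1.87 ± 0.44, adjusted p = 0.0139). In WT 0 of 39 members were called with edgeR (0.0855% of all genes), with 7 at an unadjusted p under 0.05 (8.76% of all genes) and 1, Hif1a, by DESeq2. The same changes in WT were 0.11 ± 0.64 for Epas1 and -0.12 ± 0.39 for Egln3. The Egln3 call in KO did not pass without replicate 3 of lean KO (adjusted p = 0.0525) or without replicate 3 of 16-week KO (adjusted p = 0.0777). The 16-week mice were also 30 weeks old against 18 weeks, so diet and age cannot be told apart.

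Of the 10 genes from hexokinase to aldolase and the 7 from triose phosphate to pyruvate, 0 passed in either genotype after 16 weeks against lean diet with edgeR or DESeq2. An unadjusted p under 0.05 was reached in KO by Hk2 (1.45 ± 0.61, adjusted p = 0.175) and Aldoc (-0.70 ± 0.27, adjusted p = 0.131), and in WT by Aldoa (0.26 ± 0.11), Aldoc and Pgk1 (-0.39 ± 0.17). Aldoc, the brain-type aldolase, had 24.2, 25.9 and 31.1 CPM on the lean diet, 25.3, 14.1 and 24.4 CPM after 4 weeks and 17.6, 15.0 and 17.3 CPM after 16 weeks in KO. In WT it had 29.8, 32.0 and 34.1 CPM on the lean diet, 23.5, 37.0 and 19.7 CPM after 4 weeks and 18.2, 13.3 and 20.5 CPM after 16 weeks, a log2 fold change of -0.90 ± 0.26 from lean to 16 weeks (adjusted p = 0.213). In both genotypes every 16-week library lay below every lean one. Ddit4, an inhibitor of mTORC1 that low oxygen induces, had a change of -0.998 ± 0.328 in KO (adjusted p = 0.0778) and -0.58 ± 0.32 in WT.

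Against 4 weeks of high fat diet, 16 weeks brought 3 calls of 39 in KO, 2 up and 1 down (1.64% of all genes were called, 0.393% up and 1.25% down), and 0 of 39 in WT (0% of all genes, 7 members against 7.56% of all genes at an unadjusted p under 0.05 and 0 by DESeq2). In KO Egln3 fell (-2.47 ± 0.43, 5.55-fold, adjusted p = 0.0056), Hif1a rose (0.64 ± 0.16, adjusted p = 0.0417) and Ldhb rose (0.95 ± 0.21, adjusted p = 0.0245). Ldhb, the heart-type lactate dehydrogenase (chr6:142490249-142507957, minus strand, mm10), had 57.5, 48.2 and 40.5 CPM on the lean diet, 26.0, 43.6 and 31.9 CPM after 4 weeks and 49.9, 76.2 and 69.0 CPM after 16 weeks in KO. In WT it had 41.7, 54.8 and 45.3 CPM on the lean diet, 56.8, 46.3 and 50.6 CPM after 4 weeks and 64.1, 54.1 and 80.8 CPM after 16 weeks. After 4 weeks every KO library lay below every WT library (-0.59 ± 0.22, adjusted p = 0.999). The Ldhb call did not pass without replicate 1 or 3 of 4-week KO (adjusted p = 0.144 and 0.106) or replicate 2 or 3 of 16-week KO (0.101 and 0.0971). The Hif1a call did not pass without replicate 1, 2 or 3 of 4-week KO (0.0807, 0.131 and 0.136) or replicate 1 or 2 of 16-week KO (0.268 and 0.0725).

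The comparison of 4 weeks of high fat diet with lean diet called no gene at all: 0 of 39 members in KO and 0 in WT (0% of all genes in each), with 3 and 2 members at an unadjusted p under 0.05 (7.15 and 5.59% of all genes) and 0 by DESeq2. Hif1a differed by 0.34 ± 0.16 in KO and 0.25 ± 0.16 in WT, its 4-week WT libraries all above its lean WT libraries. The interactions of genotype with diet also called 0 members and 0% of all genes with edgeR, with 2, 6 and 1 members at an unadjusted p under 0.05 for 4 weeks against lean, 16 weeks against lean and 16 against 4 weeks (4.56, 8.49 and 6.7% of all genes), and 0 by DESeq2. The lean libraries serve in both the 4-week and the 16-week comparison, and the 4-week libraries in the last.

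Some markers of Treg state and signs of library make-up differed between 16-week and lean libraries, whose mice also differed in age. The number of genes with a count did not overlap between them in either genotype. Total counts, on which that number also depends, did not overlap in WT but did in KO. They were 2872201 to 3467019 in 16-week WT and 2090078 to 2272273 in lean WT. The adipose Treg sums and the handling and activation sums overlapped in WT but not in KO, and the cell cycle sums overlapped in both. The 5 adipose Treg genes Pparg, Il1rl1, Klrg1, Gata3 and Ccr2 summed to 1814 to 2529 CPM in 16-week KO and 2293 to 4824 CPM in 16-week WT, against 4940 to 5191 CPM in lean KO and 2885 to 5141 CPM in lean WT. Among them Klrg1 averaged 433 CPM in 16-week KO and 846 CPM in 16-week WT, against 1463 CPM in lean KO and 1063 CPM in lean WT. The 5 cell cycle genes summed to 188 to 280 CPM in 16-week KO and 93.8 to 170 CPM in 16-week WT, against 104 to 233 CPM in lean KO and 135 to 188 CPM in lean WT. Genes with at least 1 count numbered 20709 to 23400 in 16-week KO and 20547 to 22861 in 16-week WT, against 18898 to 19434 in lean KO and 19452 to 19535 in lean WT. The 8 genes of cell handling and activation summed to 7382 to 9260 CPM in 16-week KO and 9838 to 11331 CPM in 16-week WT, against 17539 to 19527 CPM in lean KO and 9317 to 15280 CPM in lean WT, and the part of all these in the changes was not tested. With replicate 1 of 16-week KO and replicate 3 of 16-week WT left out, Hif1a, Epas1 and Egln3 were still called in KO against lean.

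**Figure D5:**
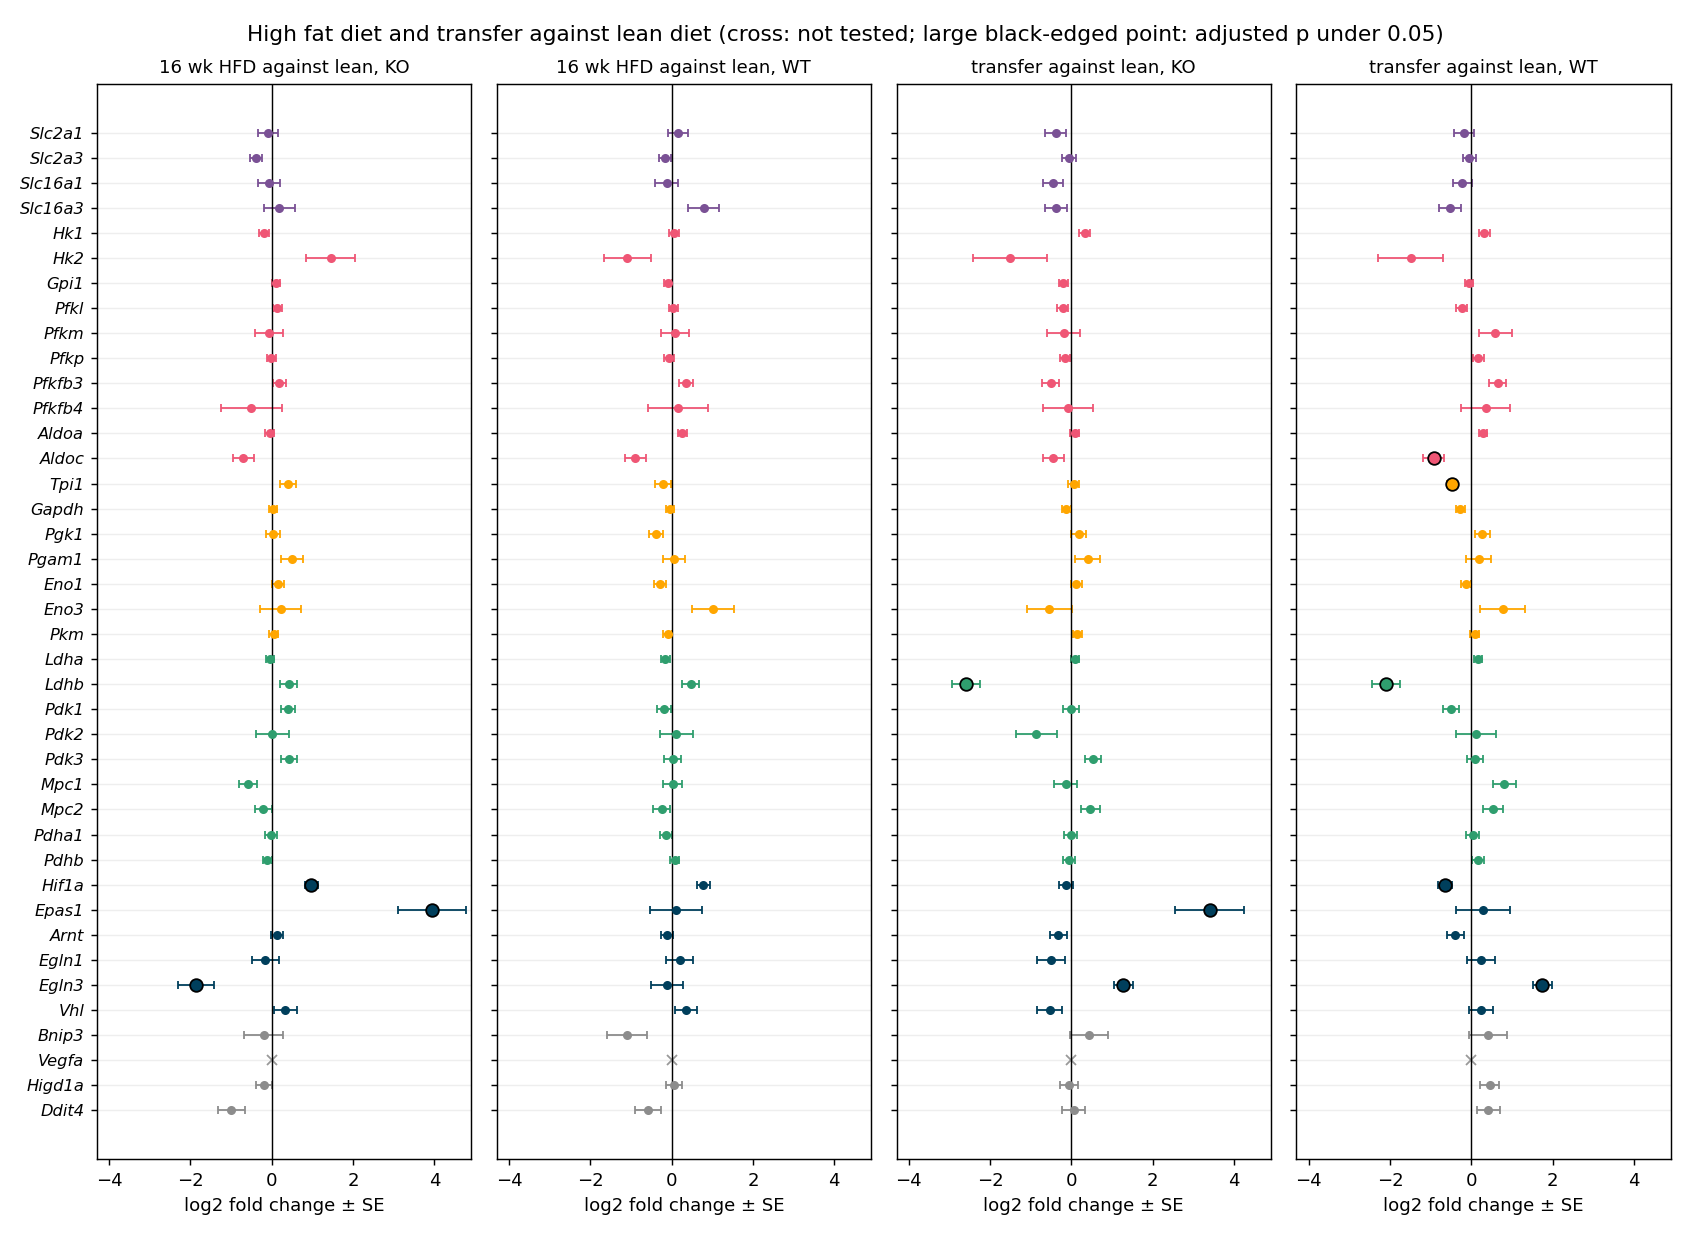
Log2 fold change of each gene (points) with its standard error (lines) for 16 weeks of high fat diet against lean diet and for transferred against lean resident cells, KO left of WT; black-edged points have an adjusted p under 0.05 and crosses were not tested. Called points lie in Hif1a, Epas1, Egln3, Ldhb, Aldoc and Tpi1.

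In both genotypes Egln3 was higher and Ldhb lower in transferred cells than in resident cells of lean fat. Egln3 had 68.0 and 66.4 CPM in transferred KO and 24.2, 23.3 and 32.4 CPM in lean KO, and 79.5 and 110 CPM in transferred WT against 32.1, 28.7 and 20.1 CPM in lean WT. All transfer libraries lay above all lean ones, at log2 fold changes of 1.28 ± 0.23 in KO (2.42-fold, edgeR adjusted p = 0.00728) and 1.75 ± 0.23 in WT (3.36-fold, adjusted p = 0.00037). Ldhb had 12.4 and 4.62 CPM in transferred KO against 57.5, 48.2 and 40.5 CPM in lean KO, and 13.1 and 9.97 CPM in transferred WT against 41.7, 54.8 and 45.3 CPM in lean WT. All transfer libraries lay below all lean ones, at -2.59 ± 0.35 in KO (6.03-fold, adjusted p = 0.00071) and -2.10 ± 0.34 in WT (4.29-fold, adjusted p = 0.00147). Per kilobase, Ldhb made up 1.24% of lactate dehydrogenase in transferred KO and 1.72% in transferred WT, against 7.45% in lean KO and 7.79% in lean WT (group means). Treg markers moved with transfer as well: the 5 adipose Treg genes summed to 7692 to 7873 CPM in transferred KO and 7662 to 7848 CPM in transferred WT, against 4940 to 5191 CPM in lean KO and 2885 to 5141 CPM in lean WT. Il2ra, the IL-2 receptor alpha chain, averaged 1784 CPM in transferred KO and 1312 CPM in transferred WT, against 803 CPM in lean KO and 535 CPM in lean WT. The cell cycle genes summed to 101 and 102 CPM in transferred KO and 54.8 and 75.9 CPM in transferred WT, against 104 to 233 CPM in lean KO and 135 to 188 CPM in lean WT. The part of these markers in the Egln3 and Ldhb changes was not tested.

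In WT 5 of 39 members passed in this comparison, 1 up and 4 down, where 10.4% of all genes were called (5.24% up and 5.19% down). Beside Egln3 and Ldhb, Hif1a fell to 244 and 223 CPM in transferred WT, against 324, 363 and 358 CPM in lean WT (-0.64 ± 0.17, adjusted p = 0.0241). Tpi1, the triose phosphate isomerase gene, had 150 and 160 CPM in transferred WT and 199, 221 and 199 CPM in lean WT (-0.48 ± 0.13, adjusted p = 0.0293). Spsb2 overlaps Tpi1 on the other strand, which these libraries do not mark. It averaged 6.72 CPM in transferred WT and 10.5 CPM in lean WT, and its part in the Tpi1 change was not tested. On high fat diet Tpi1 had 213, 155 and 148 CPM in 4-week KO and 202, 203 and 145 CPM in 4-week WT, and 304, 192 and 158 CPM in 16-week KO and 149, 194 and 194 CPM in 16-week WT, which overlapped. Aldoc had 20.8 and 14.6 CPM in transferred WT and 29.8, 32.0 and 34.1 CPM in lean WT (-0.92 ± 0.26, adjusted p = 0.0365). Transferred and lean WT libraries did not overlap in Hif1a, Tpi1 or Aldoc. Each of the 3 calls was lost when some single libraries were left out: Hif1a without replicate 2 or 3 of lean WT or either transfer WT library (adjusted p 0.0726 to 0.160), Tpi1 without the same libraries (0.0708 to 0.159), and Aldoc without replicate 1, 2 or 3 of lean WT or replicate 2 of transfer WT (0.0532 to 0.245).

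In KO 3 of 39 members passed, 2 up and 1 down, where 3.27% of all genes were called (1.3% up and 1.98% down). The third was Epas1, with 7.28 and 5.97 CPM in transferred KO against 1.10, 0.518 and 0 CPM in lean KO (3.40 ± 0.84, adjusted p = 0.0393). It did not pass when any of the 5 libraries was left out (adjusted p 0.0601 to 0.134), and Egln3 did not without replicate 2 of transfer KO (0.0568). Hif1a had 310 and 255 CPM in transferred KO, within the 272, 377 and 244 CPM of lean KO (-0.13 ± 0.16, adjusted p = 0.740), Tpi1 had 189 and 168 CPM against 152, 172 and 172 CPM, and Aldoc had 21.6 and 19.6 CPM against 24.2, 25.9 and 31.1 CPM. The interaction of genotype with transfer called 0 members with edgeR (0.0263% of all genes, with 5 members and 6.84% of all genes at an unadjusted p under 0.05) and 0 by DESeq2. Transfer was compared with lean diet across experiments that also differ in age (20 against 18 weeks) and depth, and the handling and activation genes summed to 22357 to 26616 CPM in transfer libraries against 9317 to 19527 CPM in lean ones, so none of these can be told apart from transfer.

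A further 83 genes, of the same pathways or upstream regulators such as Npas2, Clock, Mtor and Rheb, were followed by count. Upstream regulators made up 17 of the 67 tested in the diet libraries. Between KO and WT only the regulator Npas2 was called, and none of the further glycolysis, pyruvate dehydrogenase or hypoxia genes. Of 67 tested in the diet libraries, Npas2 was higher in KO than in WT with edgeR on the lean diet (log2 fold change 3.46 ± 0.50, adjusted p = 0.00329; 0.0427% of all genes were called) and after 4 weeks (3.28 ± 0.48, adjusted p = 0.00341; 0.0684%), and of 66 tested after transfer it was again the 1 call (3.31 ± 0.47, adjusted p = 0.0327; 0.171% of all genes), lost without replicate 2 of transfer KO (0.0735). After 16 weeks 0 were called between KO and WT with edgeR, where 0.0427% of all genes were (9 and 9.15% of all genes at an unadjusted p under 0.05), while DESeq2 called Npas2.

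From lean diet to 16 weeks in KO, 2 of 67 rose and 4 fell (5.95% of all genes were called). Ndrg1, a stress and hypoxia gene, averaged 40.6 CPM in 16-week KO and 103 CPM in lean KO (-1.34 ± 0.24, adjusted p = 0.00193), and Ero1l, an oxidase of protein folding, 62.9 CPM in 16-week KO and 138 CPM in lean KO (-1.13 ± 0.28, adjusted p = 0.0198). Gpd2, which carries electrons from glycolysis to the mitochondrion, averaged 24.0 CPM in 16-week KO and 41.6 CPM in lean KO (-0.79 ± 0.21), and Npas2 15.3 CPM in 16-week KO and 53.5 CPM in lean KO (-1.81 ± 0.43). P4ha1, a collagen prolyl hydroxylase subunit, averaged 92.7 CPM in 16-week KO and 56.9 CPM in lean KO (0.70 ± 0.19), and Hif3a, another HIF alpha gene, 6.89 CPM in 16-week KO and 0.817 CPM in lean KO (2.95 ± 0.84). The Hif3a mean rests on 13.4 CPM in replicate 1 of 16-week KO, the library with high stromal and adipocyte markers. Without it the mean was 3.65 CPM, the log2 fold change 2.05 and the adjusted p 0.246. Among these HIF-linked genes Ndrg1 and Ero1l fell and P4ha1 rose in the same KO libraries. The Ndrg1 call held without any single library of its groups. Ero1l was lost without replicate 1 or 2 of lean KO or replicate 1 or 3 of 16-week KO (adjusted p up to 0.0963), Gpd2 without any library but replicate 1 of lean KO (up to 0.102), Hif3a without any but replicate 2 of 16-week KO, P4ha1 without any lean KO library or replicate 3 of 16-week KO (up to 0.143), and Npas2 without replicate 1 or 3 of 16-week KO (up to 0.0779). In WT 0 of 67 were called with edgeR, where 0.0855% of all genes were (5 and 8.76% of all genes at an unadjusted p under 0.05), and 1, Ndrg1, by DESeq2.

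In transferred against lean WT cells 7 of 66 rose and 4 fell (10.4% of all genes were called). Rora, a nuclear receptor that drives Arntl, averaged 864 CPM in transferred WT and 362 CPM in lean WT (1.19 ± 0.23), Plin2, a lipid droplet protein gene, 603 CPM in transferred WT and 279 CPM in lean WT (1.04 ± 0.20), and Ndrg1 194 CPM in transferred WT and 85.2 CPM in lean WT (1.12 ± 0.21). Clock, Rheb, Dld and Taldo1 also rose, by 0.95, 0.76, 0.79 and 0.44 on the log2 scale. Kdm3a, a histone demethylase induced by HIF, averaged 27.8 CPM in transferred WT and 68.3 CPM in lean WT (-1.36 ± 0.26), and P4ha1 48.0 CPM in transferred WT and 79.7 CPM in lean WT (-0.80 ± 0.23), while Mtor (-0.74) and Pcx (0.277 CPM in transferred WT and 4.94 CPM in lean WT) also fell. The calls of Kdm3a, Ndrg1 and Plin2 held without any single library. Rora was lost without replicate 2 of transfer WT (adjusted p 0.0521), Dld without replicate 3 of lean WT or 1 of transfer WT (up to 0.126), Rheb without replicate 3 of lean WT or either transfer WT library (up to 0.0866), Clock without any 1 of the 5 libraries (up to 0.200), Mtor without any but replicate 1 of transfer WT (up to 0.259), and P4ha1, Pcx and Taldo1 without any but replicate 1 of lean WT (up to 0.163, 0.182 and 0.188). In KO 0 of 66 were called with edgeR, where 3.27% of all genes were (9 and 17.1% of all genes at an unadjusted p under 0.05), and DESeq2 called Kdm3a, Rheb and Rora.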

How the data were processed

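Libraries were made from oligo(dT)-primed, PCR-amplified and tagmented cDNA, a kit that does not mark strand, and read as pairs of 38 bases, per the labels' protocols. Per the submitters' processing notes, STAR 2.7.3a, featureCounts and the mm10 build were used. No source used here gives the featureCounts version or strand setting. The authors deposited raw counts per gene symbol, and no column was left unmapped. PCR copies are counted apart, so counting floors cover counting error only.

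After TMM scaling, genes were tested by edgeR 4.0.16 (quasi-likelihood, R 4.3.3) and p values were Benjamini-Hochberg adjusted over all genes tested, at 0.05. With a minimum count of 10, the 18 diet libraries, fitted together, kept 11698 genes, the 4 transfer libraries 11715 and the 10 lean and transfer libraries 11425. Vegfa passed none of these filters and Hk2 not that of the transfer libraries. Values are TMM-scaled CPM with the SD over libraries; CPM per kilobase uses the union of exons of GENCODE M21. Adjusted p values are from edgeR unless DESeq2 1.42.0 is named. Replicates differed by more than sampling noise (chi-square per degree of freedom 4.22 to 12.0 over 20 pairs). The test scripts were tested on simulated data.

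The members and companion lists were chosen with earlier results of these data known. Values in every library are given for members past the threshold anywhere, for the 3 smallest p of each KO against WT comparison and for Slc2a1, Hk2, Ldha, Pkm, Gapdh, Hif1a and Egln3. Alternatives were other scalings, filters and tools, a replicate block and leaving out each library; the genotype by transfer interaction, the alternatives for companion genes and the removal of 2 libraries together were added after seeing the data.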

Additional observations from a re-analysis of the deposited data

Results flagged for a closer look

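For 5 genes the KO libraries all lay on 1 side of the WT libraries at 1 condition and all on the other side at another, as did 7.11% of all genes tested on the diets. Pfkfb3 was lower in KO than in WT after transfer and higher on the lean diet, with an edgeR adjusted p of 0.446 for the interaction, and Tpi1 was higher in KO after transfer and lower on the lean diet (adjusted p = 0.589). Hk2 was lower in KO on the lean diet and higher after 16 weeks of high fat diet (interaction adjusted p = 0.381).

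After transfer the log2 ratio of KO to WT group means was -1.59 for Hk2, -0.64 for Pfkfb3, -0.19 for Pgk1, which carries a phosphate to ADP, and -0.12 for Gpi1, the glucose phosphate isomerase gene, and each lay the other way after 16 weeks of high fat diet. These differences between transfer and diet were not tested.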

How the results depend on the processing

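Of the 407 alternatives to 30 named gene results, 0 reversed a direction, 36 lost a call, 3 gained one (each for Egln3, KO against WT after 16 weeks) and 368 changed no call. The calls that held in every alternative were Hif1a and Epas1 in KO after 16 weeks against lean diet, Egln3 in KO after 16 against 4 weeks, Egln3 in transferred against lean WT and Ldhb in transferred against lean cells of both genotypes. Without the filter on low counts the members called were 1 for KO against WT after 16 weeks (Egln3), 1 for 16 weeks against lean and 1 for 16 against 4 weeks in WT (Hif1a), 2 for the interaction of genotype with 16 weeks against lean (Egln3 and Epas1), 1 for that with 16 against 4 weeks (Egln3), and 3 for transfer against lean in WT. DESeq2 called 1 member for KO against WT after 16 weeks and 1 for 16 weeks against lean in WT. Leaving out 1 library gave 0 to 1 called members for KO against WT after 16 weeks and for the interaction with 16 weeks against lean, 1 to 2 for 16 against 4 weeks in KO, 2 to 3 for 16 weeks against lean in KO, 1 to 2 for transfer against lean in KO and 2 to 5 in WT, and 0 to 0 elsewhere. The causes were not tested.

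Same-numbered replicates shared little deviation from their group means: over 33 pairs the correlation ran from -0.12 to 0.12, with 1 over 0.1. This cannot show that the samples are unpaired, since a pairing could touch few genes. With 2 libraries a group, both transfer KO and WT pairs give the same value (0.012) by construction. With a replicate block 3 members were called for transfer against lean in WT, the adjusted p of Epas1 for transfer against lean in KO was 0.109 and that of Hif1a for 16 against 4 weeks in KO 0.0584. Scaling by total count alone moved the median log2 fold change of all genes by 0.12 for 16 weeks against lean in KO and -0.13 for transfer against lean in WT. Of 24 family shares, 4 moved when the longest transcript replaced the union of exons. Groups of 2 and 3 libraries and counts under 10 in Epas1 and Hk2 limit what could be detected.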
